A study of Mus musculus with 6 samples.

Results

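The amino acid stress genes of the ATF4 response were taken as 7 genes: Atf4, Ddit3, Asns, Slc3a2, Slc7a5, Cebpb and Cebpg. Every probe set that the platform annotation assigns to one of these symbols alone was included, which gave 8 probe sets of the 12422 on the arrays that were not controls, since Asns had 2. They were measured in whole adrenal glands of male mice aged 12 weeks, on 3 arrays of the hypertensive BPH strain and 3 arrays of the hypotensive BPL strain. Both are inbred lines, bred by selection on blood pressure in opposite directions, so they differ at many loci, and the labels name no treatment. Mice numbered 3 per strain, per the labels, but whether RNA was pooled or split between arrays is not stated, so p-values here describe array-to-array spread, which may be technical in part. In a whole gland, fewer cells of a type and less RNA per cell cannot be told apart.

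When amino acids run short, or when misfolded protein collects in the endoplasmic reticulum, kinases phosphorylate the translation initiation factor eIF2, most protein synthesis slows, and translation of the Atf4 mRNA rises. The ATF4 protein then pairs with C/EBP proteins and switches on genes for amino acid uptake and synthesis and for the charging of tRNAs. Because much of this control acts on translation, the Atf4 mRNA level does not report the amount of ATF4 protein.

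Of the 7 genes, the transporter subunit Slc3a2 and the transcription factor Cebpb were higher in BPH adrenals, and the other 5 did not pass the test. Slc3a2 was 2.47-fold and Cebpb 1.94-fold higher on the fitted scale. Atf4 lay higher in all 3 BPH arrays without passing, and the synthetase Asns, the classic target of the response, differed by 0.05 ± 0.16 on the log2 scale (SE). The 2 calls were among 7 tested member probe sets, 1 for each gene. Across the whole set of 7453 tested probe sets, 4.11% were called in either direction, 3.18% higher and 0.926% lower. The brighter Asns probe set passed the filter on low values and the dimmer one did not, so the dimmer one has signals only. A call is an adjusted p under 0.05 in limma's moderated test of log2(scaled signal + 203), with Benjamini-Hochberg adjustment over all 7453 probe sets.

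Array-wide values bear on these comparisons. The 306 calls were 237 higher and 69 lower, 77.5% higher in BPH, against 66.3% with the authors' own scaling and 67.3% after quantile normalization. Over every tested probe set the log2 difference had a median of 0.08, against -0.02 with the authors' scaling, so member values are best read relative to that shift. An unadjusted limma p under 0.05 was found for 1532 of the 7453 tested probe sets, in either direction. Counts of genes at that level below are best read beside this share. Skeletal muscle markers, which do not belong to the gland, were lower in BPH: 8 of 13 tested markers were called lower, and the signals of the 15 markers summed to 6620 to 7678 on BPH arrays, against 172426, 424498 and 31126 on BPL replicates 1, 2 and 3. RNA integrity was read from control probe sets at both ends of a transcript. For Gapdh, the log2 ratio of 3' over 5' signal was 0.169 ± 0.074 in BPH and -0.0014 ± 0.050 in BPL (SD, n = 3 each), and that of Actb was 1.08 ± 0.16 and 0.856 ± 0.057. No BPL array reached the lowest BPH array for either ratio (exact permutation p = 0.1 for each, 2-sided, a floor set by 3 arrays a strain, and adjusted p = 0.1 over both). The part of muscle signal and RNA integrity in the member differences was not tested beyond the covariate fit given below. Steroid-making cortex cells and medullary cells were both represented, with all 9 cortex markers tested, of which 1 was called higher in BPH, and with 9 of the 12 medulla markers tested, of which 4 were called higher. Differences were positive for every tested marker of both lists.

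The promoters of 6 of the 7 genes were in the RefSeq table of build GRCm38.p6. The 100 bases before the annotated gene start are shown for both genes that were called and for Asns, whose promoter held a match to the C/EBP-ATF response element that ATF4 dimers bind. Capitals mark that element, spelled TGATGNAA, in Asns, and in Cebpb the core TGACG of the cAMP response element, also bound by ATF family proteins. The Slc3a2 stretch has neither.
Asns, chr6:7693210-7693309, minus strand: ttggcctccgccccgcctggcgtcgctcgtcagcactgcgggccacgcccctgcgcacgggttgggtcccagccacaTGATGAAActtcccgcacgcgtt
Cebpb, chr2:167688815-167688914, plus strand: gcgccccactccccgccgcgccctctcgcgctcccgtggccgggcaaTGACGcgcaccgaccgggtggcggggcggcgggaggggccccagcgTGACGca
Slc3a2, chr19:8713898-8713997, minus strand: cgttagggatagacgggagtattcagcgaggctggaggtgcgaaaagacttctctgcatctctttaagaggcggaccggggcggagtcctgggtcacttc
The response element, searched on both strands over the 300 bases around each start, was found in 1 of the 6 member promoters, at 23 to 16 bases before the Asns start, and in 3.97% of all 32851 promoters. The TGACG core was found in 3 of the 6, those of Cebpb, Asns and Atf4, and in 20.8% of all promoters. The Asns core lies on the opposite strand and is not marked. The CCAAT box was found in 3 of the 6, those of Cebpg, Ddit3 and Atf4, and in 37.4% of all promoters. The 3 motifs do not overlap in these windows, and a match in a sequence is not evidence of binding in the gland.

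Atf4 encodes the activator that gives the response its name. The Atf4 signal was 15145, 17497 and 14828 on BPH replicates 1, 2 and 3, against 12574, 10885 and 10437 on the BPL arrays. The strains did not overlap: the lowest BPH array lay above the highest BPL array, which was replicate 1. Groups that did not overlap were found for 27.6% of all tested probe sets, 19.7% with BPH higher and 7.97% with BPH lower, so the separation alone is common on these arrays. The means were 15823 ± 1458 in BPH and 11299 ± 1127 in BPL (SD, n = 3 each). The log2 difference of Atf4 was 0.48 ± 0.16 (SE, 95% interval 0.12 to 0.84), with an unadjusted limma p of 0.0144 and an adjusted p of 0.14. It was not called under any of 17 alternative settings, where the difference ran from 0.31 to 0.59.

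Cebpb encodes a basic leucine zipper activator that pairs with ATF4 and is itself induced in stressed and inflamed tissue. Its signal was 31478, 34785 and 23802 on the BPH arrays and 15163, 14917 and 15368 on the BPL arrays. The 3 BPL arrays were nearly equal, while the BPH arrays spread more widely, with replicate 3 lowest and still above every BPL array. The means were 30022 ± 5635 in BPH and 15149 ± 226 in BPL (SD, n = 3 each). Cebpb rose by 0.96 ± 0.18 (SE, 95% interval 0.56 to 1.36, limma adjusted p = 0.0234).

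The Cebpb call depended on several arrays. It ended without BPH replicate 1 (limma adjusted p = 0.0855), BPH replicate 2 (0.105), BPL replicate 1 (0.0639) or BPL replicate 2 (0.0773), with no filter (0.0674), with only the third BPL array kept (0.261) and with muscle marker signal as a covariate (0.902), while the difference stayed between 0.81 and 1.12 in all 17 alternatives and the adjusted p ran from 0.00558 to 0.902. Leukocytes also make Cebpb. Of 8 tested leukocyte markers 0 were called by limma, and 4 were higher at an unadjusted p under 0.05, while the defining markers Ptprc, Itgam and Cd3e were too dim to be tested. The summed signal of the 11 leukocyte markers was nonetheless 23848 to 29619 on BPH arrays and 19393 to 22852 on BPL arrays, with no overlap, and its part in the Cebpb difference was not tested. Cd74, the brightest of them, averaged 8291 in BPH and 5027 in BPL. Of the 8 tested markers 6 were higher in BPH and 2 lower, C1qb at -0.07 and Cd79a at -0.49.

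Cebpg encodes another C/EBP partner of ATF4, one that lacks an activation domain of its own. Its signal was 874, 609 and 932 on BPH arrays and 1190, 873 and 964 on BPL arrays. The groups overlapped, with the highest value on BPL replicate 1 and the lowest on BPH replicate 2. The log2 difference of Cebpg was -0.27 ± 0.19 (SE, 95% interval -0.70 to 0.16, limma adjusted p = 0.438), which was not called.

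Ddit3 encodes CHOP, a C/EBP-like factor made downstream of ATF4 under lasting stress, in amino acid shortage and in endoplasmic reticulum stress. Its signal was 1878, 2895 and 1715 on BPH arrays and 1351, 2219 and 2913 on BPL arrays. Its values spread over a wide range within each strain while the strain means were nearly equal, at 2163 ± 640 in BPH and 2161 ± 783 in BPL (SD, n = 3 each). The log2 difference of Ddit3 was 0.03 ± 0.28 (SE, 95% interval -0.62 to 0.67, limma adjusted p = 0.971), so a change of 1.5-fold in either direction lies inside the interval. Its sign turned with the authors' scaling, to -0.08, and after quantile normalization, to -0.04.

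Asns encodes asparagine synthetase, whose promoter is the textbook site of ATF4 action shown above. The brighter Asns probe set had signals of 7826, 6676 and 6421 on BPH arrays and 5961, 7269 and 7013 on BPL arrays. BPH replicate 1 was the highest array and BPL replicate 1 the lowest, and the other 2 arrays of BPH lay below the other 2 of BPL. The log2 difference of Asns was 0.05 ± 0.16 (SE, 95% interval -0.32 to 0.41, limma adjusted p = 0.893). It was -0.07 with the authors' scaling and -0.11 after quantile normalization, neither of them called. The dimmer Asns probe set had signals of 373, 567 and 571 on BPH arrays and 602, 560 and 449 on BPL arrays and was not tested.

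Slc3a2 encodes the heavy chain 4F2hc, also known as CD98, which carries amino acid exchangers of several light chains to the cell surface. Its signal was 38142, 31959 and 29617 on BPH arrays, against 10613, 13339 and 16529 on BPL arrays. The strains stood far apart: the lowest BPH array, replicate 3, was well above the highest BPL array, also a replicate 3. The means were 33239 ± 4405 in BPH and 13494 ± 2961 in BPL (SD, n = 3 each). Slc3a2 rose by 1.30 ± 0.20 (SE, 95% interval 0.85 to 1.76, limma adjusted p = 0.0102), the 97th largest increase among the 7453 tested probe sets.

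The Slc3a2 call was kept in 14 of the 17 alternatives. It ended without BPH replicate 1, at a log2 difference of 1.20 (limma adjusted p = 0.0524), with BPL replicates 1 and 2 both left out, at 0.99 (0.155), and with muscle marker signal as a covariate, at 0.90 (0.943). Over all 17 the difference ran from 0.90 to 1.46 and the adjusted p from 0.00141 to 0.943. Medulla markers were high on the same arrays as Slc3a2: their summed signal was 292166 to 388562 on BPH arrays and 164141, 203124 and 261599 on BPL replicates 1, 2 and 3. Within BPL, Slc3a2, the medulla sum and the cortex sum (560741, 692786 and 730220) were each lowest on replicate 1 and highest on replicate 3. Within BPH, Slc3a2 was highest on replicate 1 and the medulla sum on replicate 2. The part of tissue composition in the Slc3a2 difference was not tested.

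Slc7a5 encodes LAT1, the light chain that joins the Slc3a2 heavy chain to form a transporter of leucine and other large neutral amino acids. Its signal was 9087, 9598 and 8866 on BPH arrays and 6888, 7910 and 8958 on BPL arrays. BPL replicate 3 lay above BPH replicate 3, so the groups overlapped, and BPL spread more widely than BPH. The means were 9183 ± 375 in BPH and 7919 ± 1035 in BPL (SD, n = 3 each). The log2 difference of Slc7a5 was 0.22 ± 0.16 (SE, 95% interval -0.14 to 0.57, limma adjusted p = 0.462).

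**Figure D1:**
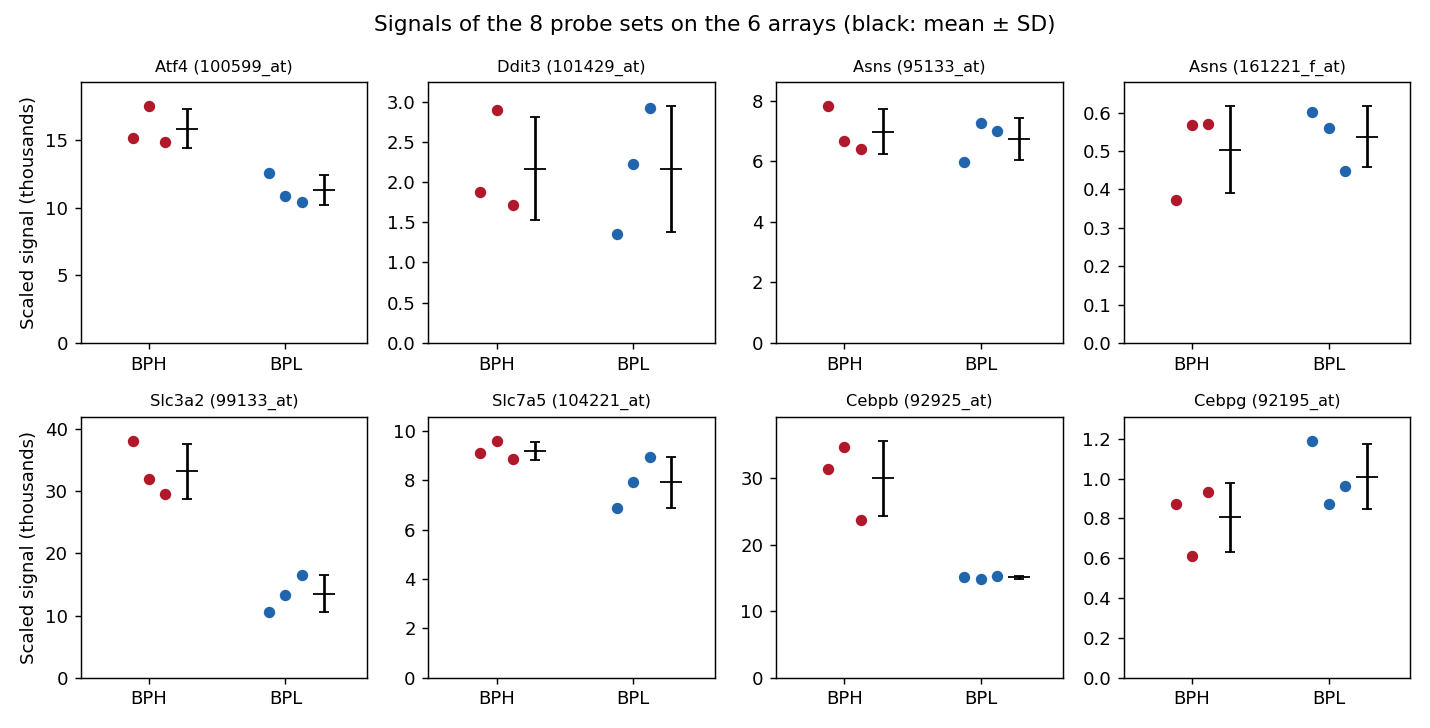
Scaled signal, in the unit marked on axes that start at 0, for each of the 8 probe sets on the 3 BPH arrays (left, red) and the 3 BPL arrays (right, blue), with the mean and SD of each strain in black. The strains separate for Slc3a2, Cebpb and Atf4 and overlap for the other 5 probe sets.

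**Figure D2:**
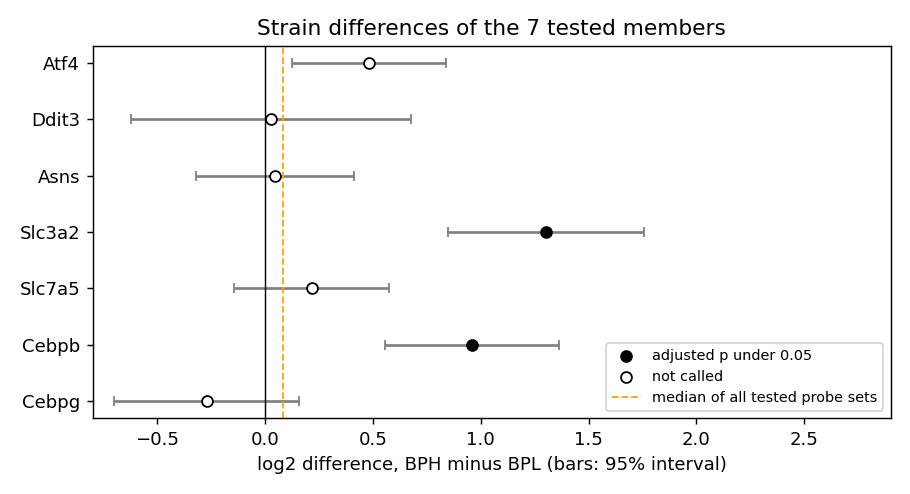
Log2 difference, BPH minus BPL, of the 7 tested members with 95% intervals from limma, and the median of all tested probe sets as a dashed line. Filled points, Slc3a2 at 1.30 and Cebpb at 0.96, passed the test, and open points did not.

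Ratios between members within an array do not depend on how arrays were scaled, and 4 of them were compared, chosen with the member values known. The log2 ratio of Slc3a2 to Slc7a5, the chains of 1 transporter, was 2.07, 1.74 and 1.74 on BPH arrays and 0.624, 0.754 and 0.884 on BPL arrays. The heavy chain was thus higher relative to the light chain on every BPH array, by 1.095 on average (2-sided exact permutation p = 0.1, adjusted p = 0.2 over 4 ratios). The log2 ratio of Cebpb to Cebpg averaged 5.23 ± 0.58 in BPH and 3.92 ± 0.22 in BPL (SD, n = 3 each, exact permutation p = 0.1, adjusted p = 0.2), also without overlap. The log2 ratio of Atf4 to its target Asns averaged 1.18 ± 0.22 in BPH and 0.744 ± 0.288 in BPL (exact permutation p = 0.2, adjusted p = 0.267), and BPL replicate 1, at 1.08, lay inside the BPH range. That of Atf4 to Ddit3 overlapped fully, at 2.91 ± 0.27 in BPH and 2.45 ± 0.70 in BPL (exact permutation p = 0.4, adjusted p = 0.4). With 3 arrays against 3 no p under 0.1 is possible. The ratios that separated the strains have the called members Slc3a2 and Cebpb on top, so they are not independent of those calls.

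**Figure D3:**
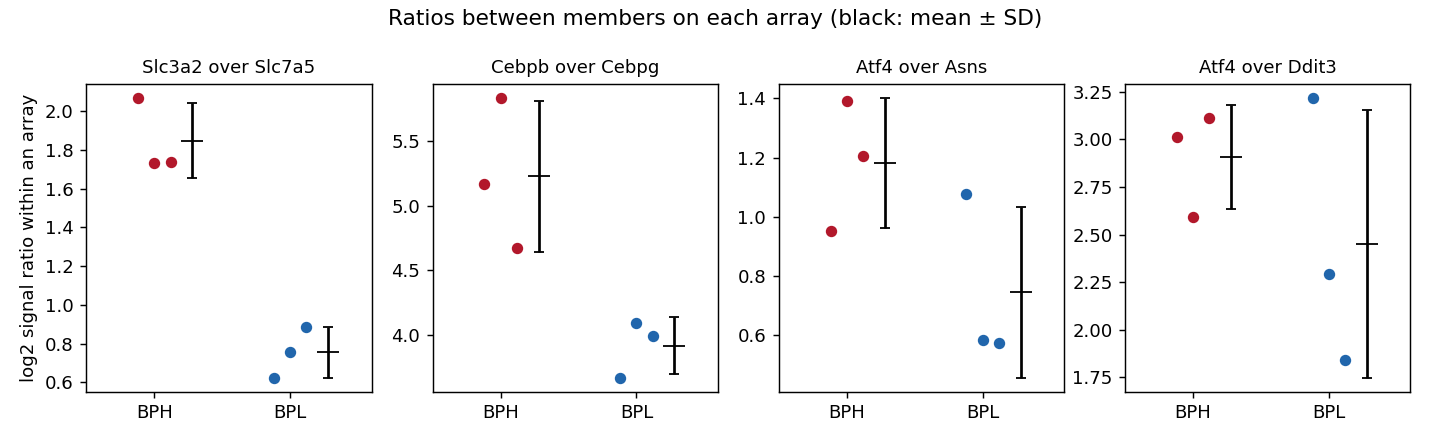
Log2 ratio of the signals of a pair of members on each array, BPH left and BPL right, with mean and SD in black (axes do not start at 0, since only differences between arrays have meaning). The ratios of Slc3a2 to Slc7a5 and of Cebpb to Cebpg separate the strains, and the ratios of Atf4 to Asns and to Ddit3 do not.

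For each member the 2 genes whose log2 values were most like it over the 6 arrays were found by Pearson correlation, as a description over arrays that share a strain split and a scaling. Each r is the highest picked from all tested genes with 1 symbol, on 6 arrays only. High values were thus found for every member, also for Ddit3 (0.997), and shared control was not tested. Atf4 was most like the immediate early genes Fosb (r = 0.981) and Egr2 (r = 0.979), transcription factors whose own log2 differences were larger, at 1.84 ± 0.24 and 2.02 ± 0.41 (SE, limma adjusted p = 0.00441 and 0.0315). Cebpb was most like Ybx1 (r = 0.999), a nucleic acid binding protein at 1.08 ± 0.18 (limma adjusted p = 0.0176), and the calcium-binding S100a4 (r = 0.994), which was not called at 0.31. Slc3a2 was most like the carbonic anhydrase Car3 (r = 0.998), called at 0.76 ± 0.16 (limma adjusted p = 0.0358), and the monocyte receptor Cd14 (r = 0.997), not called at 0.42.

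The 4 uncalled members other than Atf4 were most like genes that were not called either, which follows largely from choosing genes by likeness to uncalled members. Asns was most like Sars (r = 0.995), the seryl-tRNA synthetase of the tRNA charging list, at a log2 difference of 0.04, and like Higd2a (r = 0.993), at 0.03. Slc7a5 was most like Cbfb and Rbm4b (r = 0.995 each). Ddit3 was most like H2-D4 (r = 0.997) and Oser1 (r = 0.984), and Cebpg like Casp2 (r = 0.996) and Trim3 (r = 0.987). None of these 8 genes was called, and of all tested probe sets only 4.11% were.

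Of the other genes around the response, 71 in 7 lists were tested with the brightest probe set of each, and 8 were called higher and 0 lower. Over all 5664 tested genes 4.25% were called, 3.35% higher and 0.9% lower. The median log2 difference of the 71 was 0.09, close to the 0.08 of all tested probe sets. At an unadjusted limma p under 0.05, 16 higher and 4 lower genes of the 71 were counted, against 1532 of all 7453 tested probe sets in either direction.

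Among 11 tested ATF4 targets for signalling and feedback, of 17 listed, Atf3 and Ddit4 were higher and none was lower (list median 0.06). Atf3, a repressor induced by ATF4 and by many other stimuli, had signals of 6466, 9125 and 3426 on BPH arrays and 1658, 1439 and 1705 on BPL arrays. It rose by 1.76 ± 0.31 (SE, limma adjusted p = 0.0195), a second Atf3 probe set rose by 2.03, and another was too dim to be tested. Ddit4, which restrains the growth kinase mTORC1, had signals of 5950, 7849 and 6453 on BPH arrays and 2038, 3084 and 1808 on BPL arrays, and rose by 1.49 ± 0.22 (SE, limma adjusted p = 0.00807). For both genes every BPH array lay above every BPL array.

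The rest of that list did not pass. Vegfa, a vessel growth factor that ATF4 also targets, differed by 0.75 ± 0.18 (SE, limma adjusted p = 0.0575), and the endoplasmic reticulum protein Herpud1 by -0.10 ± 0.16 (limma adjusted p = 0.748). Vegfa was called in 4 of 17 alternatives: a higher pseudocount (limma adjusted p = 0.0362), a stricter filter (0.0213), trended and robust variances (0.0199) and without BPH replicate 3 (0.0448). Trib3, a pseudokinase that damps ATF4 and a standard marker of the response, differed by -0.02 ± 0.22 (limma adjusted p = 0.971). Ppp1r15a, the phosphatase subunit that reverses eIF2 phosphorylation in feedback, lay higher on every BPH array and did not pass, at 0.62 ± 0.20 (limma adjusted p = 0.135). Both were singled out after their values were seen. Atf3 lost its call in 7 of 17 alternatives: without BPH replicate 1 (limma adjusted p = 0.0747), BPH replicate 2 (0.0554), BPL replicate 1 (0.0639) or BPL replicate 2 (0.0615), without BPL replicates 1 and 2 (0.239), with no filter (0.0591) and with the muscle covariate (0.885), over a range of 0.00338 to 0.885. Ddit4 lost its call with the covariate only (0.112, over a range of 9.1e-04 to 0.112), where its difference was larger, at 2.13 ± 0.38 (SE).

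None of the 6 tested genes of amino acid synthesis, of 13 listed, was called (0 by limma, 1 higher and 0 lower at an unadjusted p under 0.05, list median 0.07). Psat1, an aminotransferase of serine synthesis, came nearest, with signals of 9724 to 12092 on BPH arrays and 4859 to 7952 on BPL arrays and a log2 difference of 0.69 ± 0.21 (SE, limma adjusted p = 0.113). Psph, the phosphatase of the same pathway, differed by 0.09 ± 0.15, the folate enzyme Mthfd2 by 0.10 ± 0.25 and the glutamine synthetase Glul by 0.04 ± 0.22, each with overlapping groups. The other 2 tested genes, mentioned after their values were seen, were lower: Phgdh by -0.39 ± 0.38 and Shmt2 by -0.26 ± 0.14 (limma adjusted p = 0.584 and 0.315). Shmt2 lay lower on every BPH array.

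Of 11 listed amino acid transporters 5 were bright enough to be tested, and Slc38a2 alone was called (list median 0.14). Slc38a2, the carrier SNAT2 that amino acid shortage induces, had signals of 11103, 10087 and 8807 on BPH arrays and 5477, 5642 and 6550 on BPL arrays, without overlap. It rose by 0.74 ± 0.16 (SE, limma adjusted p = 0.0422). Slc38a2 had 4 probe sets, and all but this 1 were too dim to be tested. The glutamine carrier Slc1a5 lay lower on every BPH array and did not pass, at -0.44 ± 0.18 (limma adjusted p = 0.205), and Slc6a9, a glycine carrier, and Slc1a4, a carrier of small neutral amino acids, differed by -0.24 ± 0.20 and 0.14 ± 0.19. Of the light chains listed as partners of Slc3a2, Slc7a5 and Slc7a8 could be tested, and Slc7a6, Slc7a7 and Slc7a11 were too dim. Slc7a8, mentioned after its values were seen, differed by 0.74 ± 0.25 (limma adjusted p = 0.155).

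Of 19 tested genes of tRNA charging, of 21 listed, only Eprs was called (list median 0.10, against -0.010 with the authors' scaling). Eprs, which charges glutamate and proline tRNAs, had signals of 4614, 5032 and 4088 on BPH arrays and 2150, 2362 and 2559 on BPL arrays and rose by 0.90 ± 0.16 (SE, limma adjusted p = 0.0189). The glutaminyl synthetase Qars, at 0.43 ± 0.18, the arginyl synthetase Rars, at 0.40 ± 0.19, and the glycyl synthetase Gars, at 0.08 ± 0.14, did not pass (limma adjusted p from 0.226 to 0.793). The alanyl synthetase Aars, mentioned after its values were seen, lay lower on every BPH array and did not pass, at -0.35 ± 0.14 (limma adjusted p = 0.224).

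Upstream of Atf4, 12 of 18 listed genes of eIF2 and its kinases and phosphatases were tested and only Eif2s2 was called (list median -0.07). Eif2s2, the beta subunit of eIF2, had signals of 1689, 1867 and 2188 on BPH arrays and 902, 1158 and 1100 on BPL arrays and rose by 0.75 ± 0.17 (SE, limma adjusted p = 0.0438), but a second Eif2s2 probe set, at 0.30, did not pass. The gamma subunit Eif2s3x differed by 0.25 ± 0.20, the phosphatase subunit Ppp1r15b by -0.07 ± 0.16 and Dnajc3, an inhibitor of eIF2 kinases, by -0.24 ± 0.15, all uncalled. The kinase Eif2ak4, known as GCN2, which senses uncharged tRNA, had signals of 608, 746 and 550 on BPH arrays and 199, 322 and 199 on BPL arrays, was too dim to be tested and is mentioned after its values were seen.

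Calls of Slc38a2, Eprs and Eif2s2 were less stable than that of Slc3a2 across the settings. Slc38a2 was called in 6 of 17 alternatives (limma adjusted p from 0.013 to 1.0), Eprs in 9 of 17 (0.00434 to 0.973) and Eif2s2 in 4 of 16 (0.0434 to 0.998). Each ended without BPH replicate 1, BPH replicate 2, BPL replicate 1 or BPL replicate 2. Without BPH replicate 3 Slc38a2 and Eif2s2 ended too, and without BPL replicate 3 Eif2s2 did. With the replicate number as a block none of the 3 was called, at adjusted p of 0.11, 0.0533 and 0.0856.

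Among 10 tested basic leucine zipper factors other than the members, of 16 listed, 3 were higher and 0 lower (list median 0.24). Crem, which includes the cAMP-inducible repressor ICER, had signals of 17005, 16875 and 15791 on BPH arrays and 1886, 1355 and 2413 on BPL arrays and rose by 3.04 ± 0.20 (SE, limma adjusted p = 1.6e-04). A second Crem probe set rose by 2.65. Nfil3, a repressor tied to the circadian clock, rose by 2.39 ± 0.14 (SE, limma adjusted p = 1.1e-04), but a second Nfil3 probe set, at 0.53, did not pass. The brighter probe sets of both genes kept their calls in every alternative in which they were tested, 17 for Crem and 16 for Nfil3.

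Of the C/EBP genes, Cebpd was called higher beside the member Cebpb, and none was called lower. Cebpd, like Cebpb a gene induced in acute stress, had signals of 6927, 5322 and 4268 on BPH arrays and 2866, 2984 and 2730 on BPL arrays and rose by 0.87 ± 0.19 (SE, limma adjusted p = 0.0445), a call kept in 6 of 17 alternatives and ended without any single array but BPH replicate 3 (limma adjusted p from 0.0137 to 0.888). Cebpa, the C/EBP of resting liver and fat cells, had signals of 17153, 15594 and 13341 on BPH arrays and 25864, 22429 and 20017 on BPL arrays. Its groups did not overlap, with BPH lower, but the difference of -0.56 ± 0.17 did not pass (SE, limma adjusted p = 0.12). Fat cells also make Cebpa. Of 5 tested fat markers 0 were called by limma, with 2 lower at an unadjusted p under 0.05, and the 6 measured markers summed to 117985 to 175944 on BPH arrays and 165113 to 183156 on BPL arrays. Their part in the Cebpa difference was not tested.

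The other arms of endoplasmic reticulum stress, which also induce Ddit3, had 8 of 12 listed genes tested and 0 called by limma (0 higher and 1 lower at an unadjusted p under 0.05, list median -0.003). The chaperones Hspa5 and Hsp90b1 differed by 0.17 ± 0.17 and 0.39 ± 0.17, the transcription factor Xbp1 by 0.21 ± 0.17 and its target Dnajb9 by -0.19 ± 0.25 (SE, limma adjusted p from 0.246 to 0.708).

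**Figure D4:**
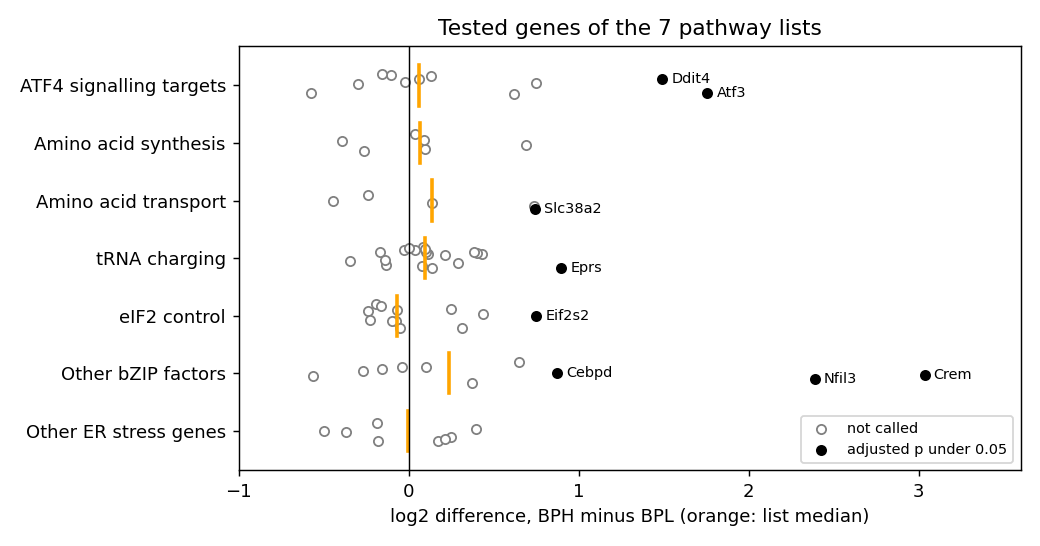
Log2 difference, BPH minus BPL, of every tested gene in the 7 lists around the ATF4 response, 1 probe set a gene, with the list median in orange. The 8 filled and named genes were called, all of them higher in BPH, and all list medians lie between -0.07 and 0.24.

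**Figure D5:**
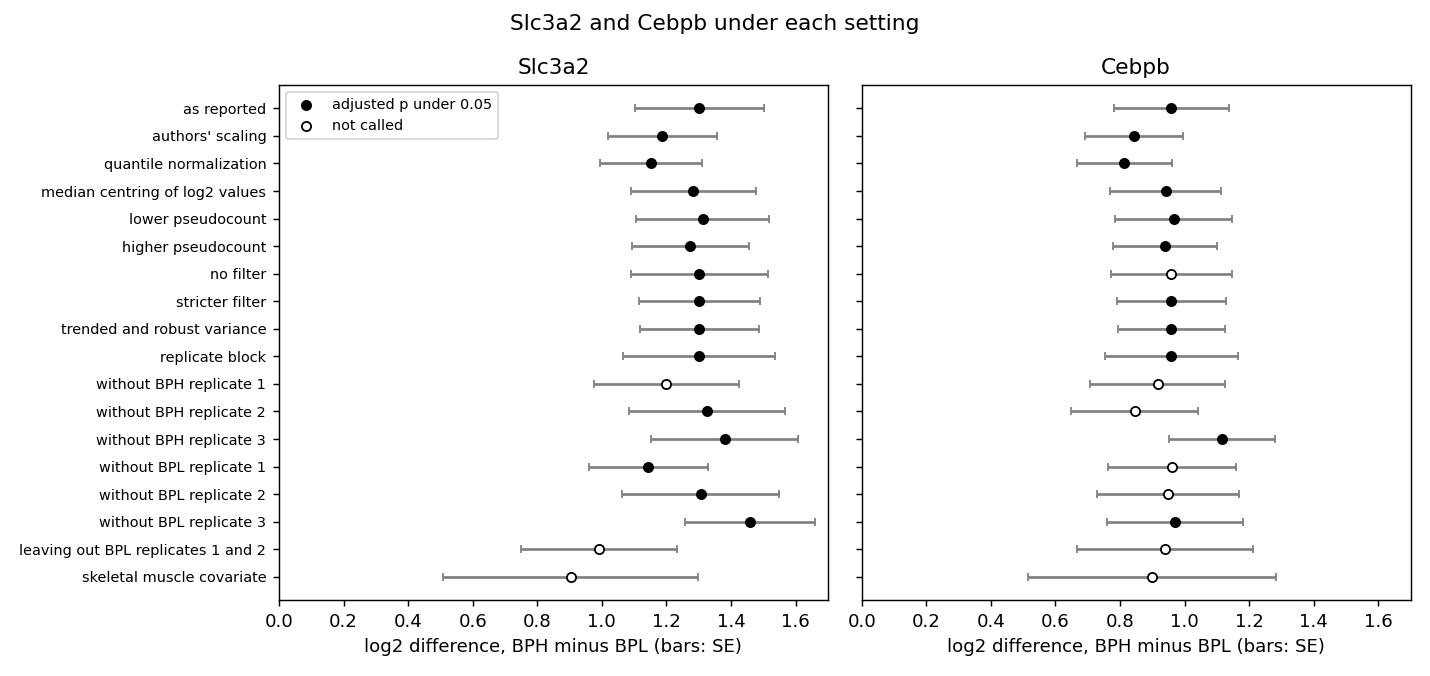
Log2 difference, BPH minus BPL, of Slc3a2 (left) and Cebpb (right) with SE in the setting reported and in 17 alternatives, filled where the adjusted p was under 0.05. All differences are positive, Slc3a2 is open in 3 alternatives and Cebpb in 7.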

How the data were processed

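Adrenal total RNA was turned into biotinylated cRNA for Affymetrix arrays, per the labels' protocols. The authors deposited linear intensity values, 1 for every probe set on an array, and the submitters' processing notes name MAS5. Its version and settings are unknown here, and detection calls were not used. Array medians ran from 945 to 1144, and each array was scaled to their mean, 1040. Values were log2(signal + 203), the 20th percentile, which understates changes of dim genes. The 66 control probe sets and the 40% of the others with the lowest mean log2 value were not tested, leaving 7453. BPH was compared with BPL by limma 3.58.1 in R 4.3.3 (lmFit and eBayes, 2-sided, 4 residual and 4.5 prior degrees of freedom). The model was also run on simulated data with independent errors. These lacked variation shared between probe sets, such as the muscle signal here, so that run does not cover it. The number of arrays limits precision. Arrays shared at most 1 identical value with each other.

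Genes were named from probe sets with 1 symbol in the platform annotation (10833). Named genes were all members, up to 4 called genes per list with the largest differences (filled up with the brightest uncalled ones), and the 2 genes most like each member. Lists, members and tests were chosen with earlier results of these data known. The 17 alternatives were the authors' scaling, quantile normalization, median centring, a lower and a higher pseudocount (5th and 40th percentile), no filter and a stricter one (60% dropped), trended and robust variances, the replicate number as a block, each array left out, BPL replicates 1 and 2 left out, and the mean log2 muscle marker signal as a covariate. The replicate numbers do not pair arrays by any label.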

Additional observations from a re-analysis of the deposited data

How the results depend on the processing

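Counts of calls moved with the filter and with single arrays. Against 306 probe sets, 127 were called with no filter and 92 when BPL replicates 1 and 2, highest in muscle signal, were left out together. With the mean log2 signal of muscle markers as a covariate, 14 were called. That covariate did not overlap between strains, at 8.95 to 9.07 on BPH arrays and 10.58 to 14.04 on BPL arrays. With it, Slc3a2 differed by 0.90 ± 0.40 against 1.30 ± 0.20 as reported (SE). Cebpb differed by 0.90 ± 0.38 against 0.96 ± 0.18, so the SE was larger for both called members. Without 1 array the count was 112 to 372, at 128, 112 and 186 without BPH replicates 1, 2 and 3, and at 160, 138 and 372 without BPL replicates 1, 2 and 3. Against 2 member probe sets, 1 was called with no filter, 0 without BPL replicates 1 and 2, 0 with the covariate and 0 to 2 without 1 array (0 without BPH replicate 1, and 1 without BPH replicate 2, BPL replicate 1 or BPL replicate 2). Against 8 pathway genes, 5 were called after quantile normalization, 3 with no filter, 4 with the replicate block, 3 without BPL replicates 1 and 2, 2 with the covariate and 3 to 7 without 1 array (3 without BPH replicate 1, BPH replicate 2, BPL replicate 1 or BPL replicate 2). The block called 239 probe sets in all and both members. Deviations of same-numbered arrays from their strain means correlated at -0.058, -0.054 and -0.18. With 3 arrays a strain, such values cannot decide whether the numbers pair arrays. With 1 BPL array left, it is assumed to vary like the BPH arrays. The cause of these shifts was not tested. The fit with no filter adjusts over more probe sets, and its variance estimates changed as well. For Cebpb the SE was 0.188 with no filter against 0.177 as reported, and the unadjusted limma p was 0.0011 against 5.2e-04.

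Signs were followed across the settings for 35 probe sets, those of the tested members and of the list genes named by rule. Genes most like a member, and list genes mentioned after their values were seen, were not followed. No called difference among the 35 changed sign. In 35 cases over 11 uncalled genes it did. With the authors' scaling these were Ddit3 (-0.080), Asns (-0.067), Glul (-0.074), Mthfd2 (-0.015), Psph (-0.018) and Gars (-0.034), and after quantile normalization the same 6 (-0.036, -0.11, -0.10, -0.026, -0.024 and -0.035). When BPL replicates 1 and 2 were left out they were Ddit3 (-0.43), Asns (-0.013), Mthfd2 (-0.40), Slc6a9 (0.052), Slc1a4 (-0.065) and Xbp1 (-0.022). With the covariate they were Ddit3 (-0.52), Slc7a5 (-0.015), Mthfd2 (-0.80), Psph (-0.017), Slc6a9 (0.38), Slc1a4 (-0.38) and Xbp1 (-0.20). Without 1 array Ddit3 ran from -0.25 to 0.25, Asns from -0.038 to 0.10, Glul from -0.15 to 0.19, Mthfd2 from -0.089 to 0.35, Slc1a4 from -0.057 to 0.24 and Ppp1r15b from -0.14 to 0.047. Dim probe sets, such as those of Cebpg and the second Asns set, are limited by background.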
